A study of Chlorocebus sabaeus with 45 samples.

Results

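The prostaglandin and leukotriene pathway was followed through 10 genes in whole blood of juvenile male vervet monkeys (Chlorocebus sabaeus). They were chosen by gene symbol for their roles in the pathway, with earlier results of these data known. All 10 were found among the 33994 rows of each expression table. They are the cyclooxygenases PTGS1 and PTGS2, the prostaglandin E synthase PTGES, the prostaglandin E2 receptors PTGER2 and PTGER4, the prostaglandin-degrading enzyme HPGD, the 5-lipoxygenase ALOX5 and its activating protein ALOX5AP, the leukotriene A4 hydrolase LTA4H and the leukotriene B4 receptor LTB4R. The study followed 15 wild-born animals from St. Kitts, 1 from each troop, through relocation to individual housing, and asked how the blood transcriptome responded. Each animal gave 1 RNA sample on day 0, 1 on day 3 and 1 on day 14, which made 45 libraries and 15 per time point. Day 0 samples were taken in the field right after trapping under ketamine and xylazine. Samples of day 3 and day 14 were taken in quarantine under dexmedetomidine and midazolam, so any change since day 0 comes with another place and another sedative, and these cannot be told apart. There were no animals that stayed in the field, and no separated cells.

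Both branches of the pathway start from arachidonic acid, which phospholipases release from membranes. Cyclooxygenases turn it into prostaglandin H2, the precursor of prostaglandin E2, thromboxane and prostacyclin, while 5-lipoxygenase, helped by its activating protein, turns it into leukotriene A4, from which the neutrophil attractant leukotriene B4 is made. In blood, PTGS1 is known as the constitutive cyclooxygenase of platelets, PTGS2 as the form that leukocytes induce in inflammation, and the 5-lipoxygenase branch as a feature of neutrophils, monocytes and other myeloid cells.

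Values are FPKM, fragments counted per gene relative to its length and to the depth of the library, and are printed after TMM scaling (trimmed mean of M values) between libraries. Scaled FPKM are per length, so levels of different genes can be set side by side. The libraries held 13216280 to 31469337 fragments on genes, and the day 0, day 3 and day 14 medians were 22963984, 22754349 and 22758495. The fewest fragments behind a member's value were 13, for PTGES in an animal on day 0, and no member was at 0 in any library. The day 0 library of animal 9 and the day 14 library of animal 4 had 30752 and 31402 rows above 0, against 20008 to 26792 in the other 43, and leaving both libraries out changed no call of a member. Changes were tested with limma on log2(scaled FPKM + 0.1) over 18753 genes, with the animal as a term and Benjamini-Hochberg adjustment over all of them. The scaling bears on day 14: the typical tested gene had a log2 fold change of −0.02 on day 14 vs. day 0 with TMM and of −0.36 without it (medians), and changes are relative to it. It also set the balance of calls over all genes in that comparison, 4316 up and 3937 down with TMM and 1742 up and 9360 down without.

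On day 3 vs. day 0, 4 of the 10 members passed an adjusted p-value of 0.05, against 19.2% of all tested genes. PTGS1 and HPGD were up-regulated (10.1% of all genes were) and PTGS2 and ALOX5AP were down-regulated (9.04% of all genes were). On day 14 vs. day 0, 3 of 10 passed, against 44.0% of all tested genes, and the 3 (PTGS2, LTB4R and ALOX5AP) were down-regulated. Of all genes 23.0% were up-regulated and 21.0% down-regulated in that comparison. Without scaling between libraries, 8 of 10 members passed in that comparison, all lower (all but PTGS1 and HPGD), as did 11102 of the 18753 tested genes, of which 9360 were lower. Between day 3 and day 14, 1 member passed (PTGS1, down-regulated), against 23.7% of all tested genes and 9.75% that were lower and 13.9% that were higher. Without scaling 7 members passed between those days, all lower (all but PTGS2, PTGES and ALOX5AP), as did 9574 of the 18753 genes, of which 8641 were lower. The median log2 fold change of the 10 members was −0.15, −0.44 and −0.11 in the 3 comparisons, beside 0.01, −0.02 and −0.02 for all tested genes. The day 0 libraries serve both comparisons with day 0, so these are not independent of each other. In blood, fewer cells of a type and less RNA per cell cannot be told apart, and this holds for each change below.

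**Figure D1:**
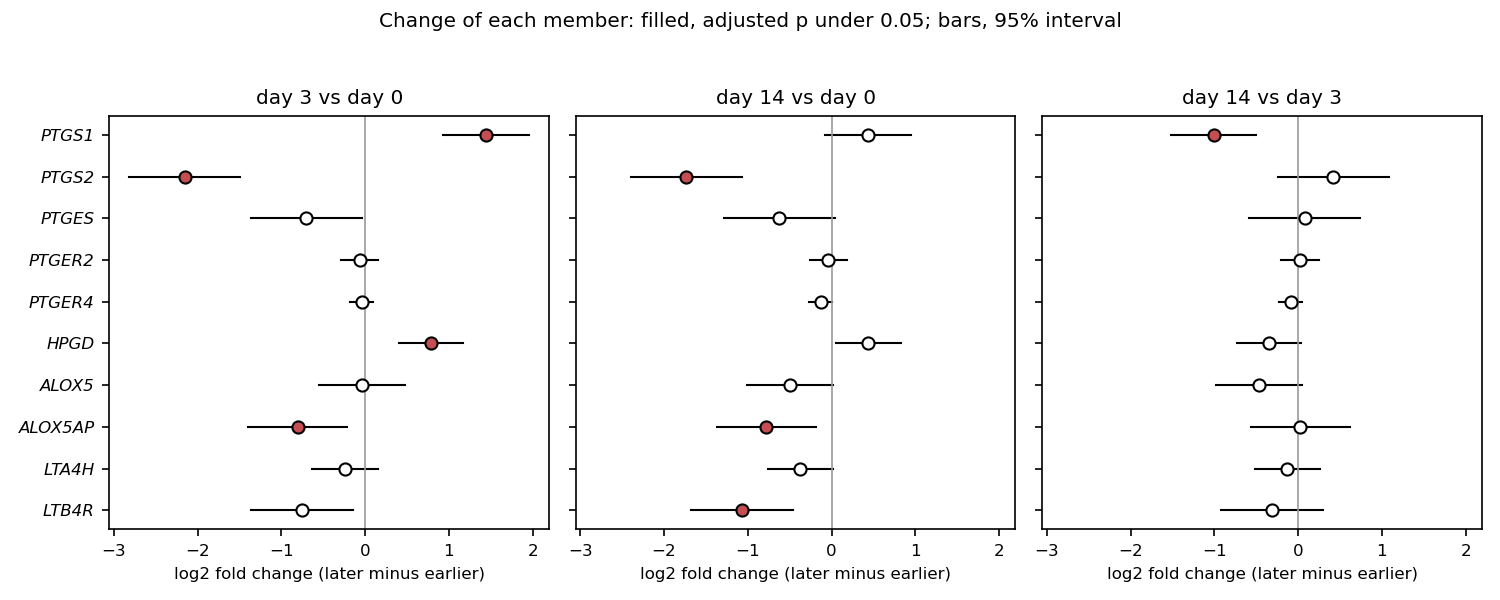
Log2 fold change (x axis, later minus earlier time point) of the 10 members in the 3 comparisons, as points with 95% intervals from limma (15 animals), filled where the adjusted p-value was under 0.05. PTGS2 lies farthest to the left in both comparisons with day 0, at −2.15 and −1.73, and PTGS1 farthest to the right on day 3 vs. day 0, at 1.45.

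The cyclooxygenases moved in opposite directions by day 3. PTGS2, the inducible form, lay between 6.16 and 158 scaled FPKM on day 0, with a median of 23.9. It lay between 2.81 and 21.4 on day 3 (median 6.45) and between 1.99 and 22.7 on day 14 (median 8.9). All 15 day 3 values and all 15 day 14 values were below the median of day 0, although the ranges overlapped. The log2 fold change on day 3 was −2.15 (standard error 0.33, limma adjusted p = 1.70e-04), a 4.45-fold fall that was seen in 14 of 15 animals. On day 14 it was −1.73 (standard error 0.33, adjusted p = 7.82e-05), again with lower values in 14 of 15 animals. In both comparisons the exception was animal 5, whose PTGS2 was 10.7 on day 0, 21.3 on day 3 and 22.7 on day 14. Animals differed most in the size of the fall, from −5.07 in animal 11 to a gain of 0.98 in animal 5 on the log2 scale by day 3. From day 3 to day 14 the log2 difference was 0.42 (95% interval −0.24 to 1.08, adjusted p = 0.359), which did not pass. Without TMM scaling it was 0.04 (limma adjusted p = 0.920).

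PTGS1, the constitutive form, went the other way and then back. It ranged from 0.556 to 10.1 scaled FPKM on day 0 (median 2.27), from 2.69 to 12.7 on day 3 (median 6.08) and from 1.64 to 4.85 on day 14 (median 3.17). All 15 values of day 3 were above the median of day 0, while the ranges of the 3 days overlapped. On day 3 vs. day 0 it rose by a log2 fold change of 1.45 (standard error 0.25, limma adjusted p = 4.04e-04), with higher values in 13 of 15 animals. The exceptions, animals 13 and 14, had the highest day 0 levels, 10.1 and 8.2. It fell from day 3 to day 14 with a log2 fold change of −1.01 (standard error 0.25, adjusted p = 0.00541), with lower values in 12 of 15 animals. On day 14 vs. day 0 the difference was 0.44 (95% interval −0.07 to 0.95, adjusted p = 0.159), which did not pass. Without TMM scaling it was 0.03 (limma adjusted p = 0.915).

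**Figure D2:**
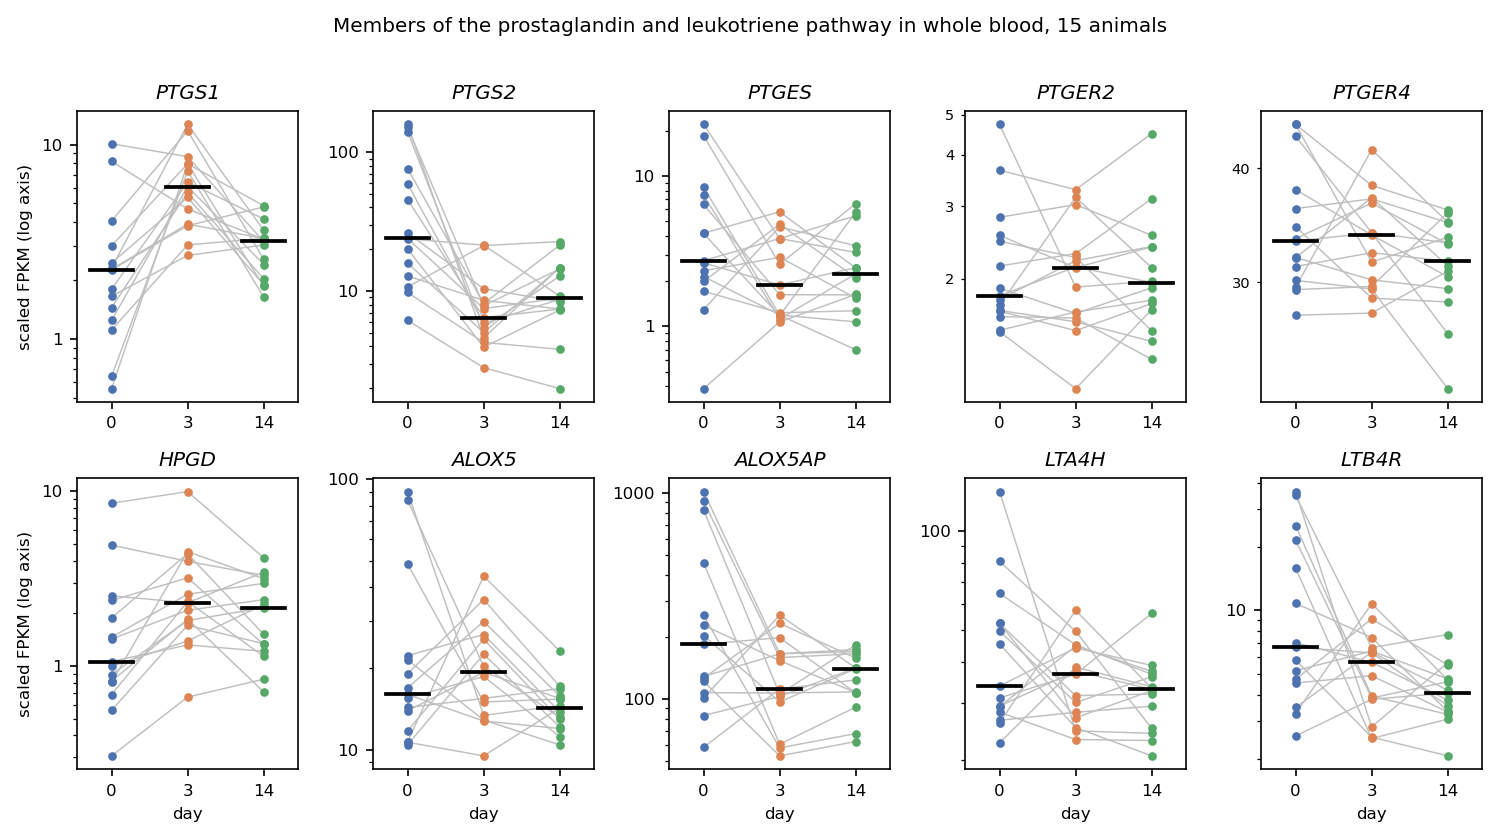
Scaled FPKM (y axis, log scale, a separate range for each gene) of the 10 members by day, with a point for each of 15 animals, grey lines joining the samples of an animal and black bars at the median. PTGS2 dropped from a median of 23.9 to 6.45 and 8.9, PTGS1 peaked on day 3, and the day 0 values of ALOX5AP and LTB4R reach far above those of the later days.

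The balance of both cyclooxygenases was also taken as the log2 ratio of PTGS2 to PTGS1 within a library, which does not depend on scaling between libraries. On day 0 it ranged from 0.99 to 7.89 with a mean of 3.83 ± 1.83 (SD, n = 15), so PTGS2 was the more abundant transcript in 15 of 15 animals. On day 3 it ranged from −1.12 to 2.46 with a mean of 0.23 ± 1.12, and PTGS2 exceeded PTGS1 in 8 of 15 animals. On day 14 its mean was 1.65 ± 0.95 and PTGS2 was again the more abundant in 14 animals. The mean ratio was thus 14.2-fold on day 0, 1.17-fold on day 3 and 3.13-fold on day 14, and the ranges overlapped. The ratio fell in 15 of 15 animals by day 3, with a mean change of −3.61 ± 2.25 (adjusted p = 5.49e-04, exact two-sided test by sign-flips over animals, adjusted over 9 ratio tests). It remained lower on day 14 in 12 animals (−2.19 ± 1.65, adjusted p = 0.00412, same exact test), and it rose from day 3 to day 14 in 12 animals (1.42 ± 1.40, adjusted p = 0.00632, same exact test).

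**Figure D3:**
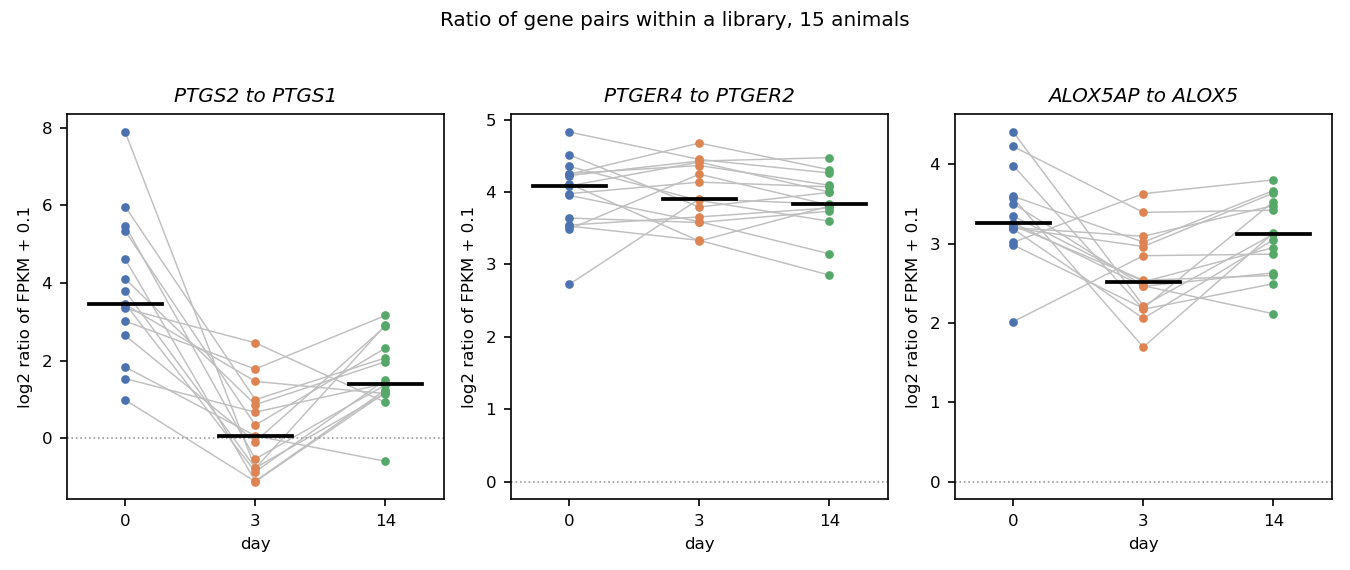
Log2 ratio of 2 genes within a library (y axis, FPKM + 0.1) by day for 3 gene pairs, with a point for each of 15 animals, grey lines joining an animal's samples, black bars at the median and a dotted line at equal levels. The ratio of PTGS2 to PTGS1 dropped from a median of 3.47 to 0.06 and then 1.41, while that of PTGER4 to PTGER2 stayed between medians of 3.83 and 4.08.

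PTGES, which isomerises prostaglandin H2 to prostaglandin E2, did not pass in any comparison with TMM scaling and all animals. Its levels were 0.386 to 22.0 scaled FPKM on day 0 (median 2.74), 1.07 to 5.78 on day 3 (median 1.89) and 0.701 to 6.54 on day 14 (median 2.24). The day 0 range was the widest of any member, 57.0-fold from animal 1 to animal 4, and enclosed both later ranges. The log2 differences were −0.70 on day 3 (95% interval −1.37 to −0.04, adjusted p = 0.130 from limma) and −0.63 on day 14 (−1.29 to 0.04, adjusted p = 0.118). It was lower in 9 and 10 of 15 animals. The day 14 difference passed without animal 1 (adjusted p = 0.0451). Without TMM scaling PTGES passed as lower on day 14 vs. day 0 (log2 fold change −1.03, limma adjusted p = 0.00351). These intervals leave room for falls of more than 1 on the log2 scale.

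HPGD, which inactivates prostaglandins by oxidising their 15-hydroxyl group, was among the less abundant members. It lay between 0.306 and 8.53 scaled FPKM on day 0 (median 1.06), between 0.663 and 9.93 on day 3 (median 2.30) and between 0.709 and 4.15 on day 14 (median 2.15). The ranges overlapped, and animal 8 was lowest on day 0 and day 3 while animal 11 was highest on each day. HPGD rose on day 3 by a log2 fold change of 0.79 (standard error 0.19, limma adjusted p = 0.00439), with higher values in 13 of 15 animals. Without the animal as a term the same value had an adjusted p of 0.115. On day 14 vs. day 0 the difference was 0.44 (95% interval 0.05 to 0.82, adjusted p = 0.0595), which did not pass. It passed when any 1 of animals 4, 11, 12, 13 or 15 was left out, with an adjusted p down to 0.0213. It passed under none of the 11 alternatives that kept all animals or left out single libraries. Without TMM scaling it was 0.05 (limma adjusted p = 0.8115). Its adjusted p was 0.318 without the animal term and 0.140 by limma-voom. Between day 3 and day 14 the HPGD difference was −0.35 with TMM scaling (limma adjusted p = 0.177). Without TMM scaling it was −0.70 and passed (limma adjusted p = 0.002).

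PTGER4, which like PTGER2 raises cyclic AMP on binding prostaglandin E2, varied least between animals of all members on each day. It lay between 27.6 and 44.7 scaled FPKM on day 0 (median 33.3), between 27.7 and 42.0 on day 3 (median 33.8) and between 22.9 and 36.0 on day 14 (median 31.6). Within a day the highest animal was at most 1.62-fold above the lowest. The log2 differences were −0.04 on day 3 (95% interval −0.18 to 0.09, adjusted p = 0.707 from limma) and −0.13 on day 14 (−0.27 to 0.01, adjusted p = 0.113), so a fall of more than 0.27 on the log2 scale lay outside both intervals. PTGER2 was scarcer, with medians of 1.82, 2.13 and 1.96 on day 0, day 3 and day 14, and a range over all 45 libraries from 1.08 to 4.74. Its log2 differences from day 0 were −0.06 (95% interval −0.29 to 0.16) and −0.04 (−0.26 to 0.18), with adjusted p = 0.724 and 0.778. Without TMM scaling both receptors passed as lower on day 14 vs. day 0, with log2 fold changes of −0.44 for PTGER2 and −0.55 for PTGER4. The ratio of PTGER4 to PTGER2 within a library was 15.6-fold, 15.8-fold and 14.4-fold on the 3 days, and its log2 changes of 0.02, −0.11 and −0.13 did not pass (adjusted p = 0.887, 0.456 and 0.141, exact sign-flip test, n = 15 animals). The change on day 14 vs. day 3 passed the same exact test with 1 in place of 0.1 added (−0.24, adjusted p = 0.00687) and without animal 3 (−0.18, adjusted p = 0.0289).

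In the leukotriene branch the member called in both comparisons with day 0 was ALOX5AP, the membrane protein that presents arachidonic acid to 5-lipoxygenase. It was the most abundant member on each day. Its day 0 values ran from 58.2 to 1016 scaled FPKM (median 184), those of day 3 from 53.0 to 255 (median 112) and those of day 14 from 62.2 to 183 (median 140). Apart from 2 day 3 values below the lowest of day 0, the later values lay inside the lower portion of the day 0 range, and animals 15, 11 and 7, with 1016, 913 and 829, stood above all others on day 0. The log2 fold change was −0.80 on day 3 (standard error 0.29, adjusted p = 0.0487 from limma) and −0.78 on day 14 (standard error 0.29, adjusted p = 0.0288). Values were lower in 9 of 15 animals and higher in 6 at both times. The day 3 call was at the threshold. It was lost with 1 or 0.01 in place of 0.1 added (adjusted p = 0.0513 and 0.0543), at log2 fold changes of −0.801 and −0.805. The call was lost as well without the filter on low genes (−0.80, adjusted p = 0.0860) and with the RNA integrity number in the model (−0.80, adjusted p = 0.0844). It was also lost without the animal term (adjusted p = 0.0921), in the exact sign-flip test over the 15 animals (unadjusted p = 0.0595), and when any 1 of 9 animals (2, 4, 7, 8, 9, 10, 11, 13 or 15) was left out, where the adjusted p reached 0.130. The day 14 call was lost without the animal term (adjusted p = 0.0514) and without any 1 of animals 2, 4, 7, 11 or 15 (up to 0.0717). The adjusted p was 0.0513 without the filter and 0.150 with the integrity number, with the log2 fold change still −0.78 in both. Without TMM scaling the day 14 log2 fold change was −1.21.

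LTB4R, the high-affinity receptor through which leukotriene B4 attracts neutrophils, ranged from 2.56 to 36.3 scaled FPKM on day 0 (median 6.70). It ranged from 2.49 to 10.8 on day 3 (median 5.69) and from 2.06 to 7.7 on day 14 (median 4.08). Of the day 14 values, 14 of 15 were below the median of day 0, and the ranges overlapped. On day 14 vs. day 0 LTB4R fell with a log2 fold change of −1.07 (standard error 0.30, limma adjusted p = 0.00439), with lower values in 11 of 15 animals. That adjusted p was 0.0839 once the RNA integrity number was added as a covariate. On day 3 the difference was −0.76 (95% interval −1.37 to −0.15, adjusted p = 0.0732), which passed when any 1 of animals 3, 5 or 14 was left out, with an adjusted p down to 0.0260.

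ALOX5 itself, the enzyme that oxidises arachidonic acid to leukotriene A4, had medians of 16.0, 19.4 and 14.3 scaled FPKM on day 0, day 3 and day 14. Its range narrowed, from 10.4 to 90.1 on day 0, 9.50 to 43.9 on day 3 and 10.4 to 23.2 on day 14, and the standard deviation of its log2 values between animals was 1.02, 0.61 and 0.28. With TMM scaling and all animals, none of its comparisons passed with limma. The log2 difference was −0.04 on day 3 (95% interval −0.55 to 0.47) and −0.50 on day 14 (−1.02 to 0.01), with adjusted p = 0.936 and 0.106. Between day 3 and day 14 it was −0.46 (adjusted p = 0.179), with lower values in 11 of 15 animals and an unadjusted p of 0.00531 in the exact sign-flip test. LTA4H, the hydrolase that makes leukotriene B4 from leukotriene A4, had medians of 33.7, 36.7 and 32.9. Its highest value, 132 in animal 11 on day 0, was well above the next, 80.9 in animal 15. The log2 differences of LTA4H from day 0 were −0.24 (95% interval −0.63 to 0.15, adjusted p = 0.413) and −0.37 (−0.76 to 0.02, adjusted p = 0.114). Without TMM scaling both genes passed as lower on day 14 vs. day 0, with log2 fold changes of −0.92 for ALOX5 (limma adjusted p = 0.00154) and −0.79 for LTA4H (0.00120), and on day 14 vs. day 3, with −0.84 (0.00531) and −0.51 (0.0330).

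The activating protein and the enzyme did not keep the same proportion. The log2 ratio of ALOX5AP to ALOX5 within a library was 3.38 ± 0.57 on day 0 (SD, n = 15), 2.62 ± 0.53 on day 3 and 3.10 ± 0.49 on day 14. These are ratios of 10.4-fold, 6.14-fold and 8.58-fold, and the ranges of the 3 days overlapped. The ratio was lower on day 3 than on day 0 in 13 of 15 animals (mean change −0.76 ± 0.84, adjusted p = 0.00648, exact sign-flip test). It was higher on day 14 than on day 3 in 14 of 15 animals (0.48 ± 0.51, adjusted p = 0.00531, same exact test). On day 14 vs. day 0 the change of −0.28 ± 0.77 did not pass (adjusted p = 0.228, same exact test).

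In order of median level per length, ALOX5AP came first on each day, followed by LTA4H and PTGER4. ALOX5AP exceeded LTA4H in 15 of 15 animals on each day. LTA4H and PTGER4 could not be ordered, since LTA4H was the higher in 7, 9 and 8 of 15 animals on the 3 days. PTGS2 was in the fourth place on day 0, above ALOX5 in 10 of 15 animals, and in the fifth on day 3, when ALOX5 was above it in 14 of 15. PTGS1 moved from the eighth place on day 0 to the sixth on day 3, where its level and that of PTGS2 were not separated (PTGS2 higher in 8 of 15 animals). HPGD, PTGER2 and PTGES filled the lowest places on day 3 and on day 14, and their own order was not separated beyond the spread between animals: HPGD exceeded PTGER2 in 8 of 15 animals on day 3 and in 6 on day 14.

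Cell markers moved in the same libraries, and their part in the changes of the members was not tested. Of the neutrophil markers, 13 of the 15 listed were in the files and none was at 0 throughout. On day 3 vs. day 0, 9 of 13 were down-regulated and on day 14 vs. day 0 12 of 13, with median log2 fold changes of −1.16 and −1.26. Their summed level ranged from 1452 to 43490 scaled FPKM on day 0 (median 3962), from 601 to 6986 on day 3 (median 2593) and from 546 to 4395 on day 14 (median 2261). Platelet markers, 11 of 12 listed, went the other way: 10 were up-regulated on day 3 (median 1.48), 7 on day 14 vs. day 0 (median 0.70; 2 up and 1 down without TMM), and 6 were down-regulated from day 3 to day 14 (median −0.85). The medians of the platelet sum on the 3 days were 643, 2001 and 1478. Its range was 239 to 4355, then 624 to 4885, then 419 to 3517. As groups, the platelet markers took the direction of PTGS1 in each comparison it was called in, and the neutrophil markers that of PTGS2, ALOX5AP and LTB4R. Within animals the neutrophil sum and PTGS2 did not always go the same way. By day 3 the sum rose in animals 1, 3, 6, 9, 12 and 14, in which PTGS2 fell. In animal 5 the sum fell from 8125 to 5380 while PTGS2 rose, and in the other animals both fell.

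Of 10 monocyte markers, 3 were up-regulated on day 3, by day 14 a single marker was above and 4 were below day 0, and 5 were down from day 3 to day 14. Without TMM 0 were up and 5 down by day 14, and 7 were down from day 3 to day 14. The summed level of the monocyte markers is given next. Their summed level had medians of 1572, 1677 and 1621 scaled FPKM, with ranges of 830 to 7934, 872 to 2669 and 941 to 2548. Of 8 NK cell markers, 6 rose on day 3 (4 without TMM) and 7 on day 14, and of 10 erythroid markers 9 and 10 rose, with the erythroid sum at medians of 4466, 13040 and 33320. T cell markers changed in 2 of 9 cases on day 3 (both down) and 3 of 9 on day 14 (all up). Without TMM scaling the 2 T cell calls of day 3 were lost, and 5 markers passed on day 14, all down, so the calls of day 3 and the direction of day 14 depend on the scaling. B cell markers changed in 0 of 8 on day 3 by limma (1 at an unadjusted p under 0.05, 0 by limma-voom) and in 3 of 8 on day 14 (all down, against 8 down without TMM). Eosinophil and basophil markers changed in 0 of 9 on day 3 by limma (2 at an unadjusted p under 0.05, 0 by limma-voom) and in 3 of 9 on day 14 (all up, against 1 up and 1 down without TMM).

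**Figure D4:**
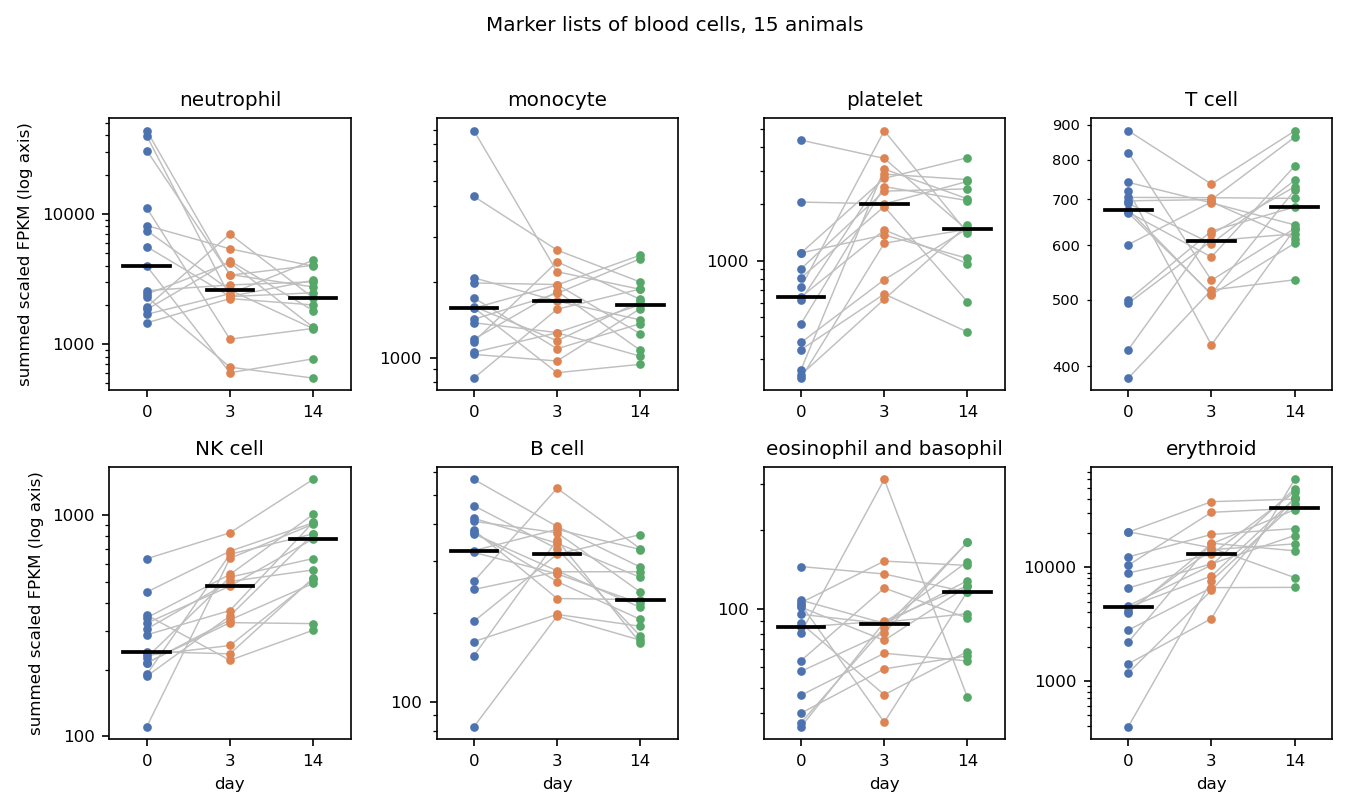
Summed scaled FPKM (y axis, log scale, a separate range for each list) of 8 blood cell marker lists by day, with a point for each of 15 animals, grey lines joining an animal's samples and black bars at the median. The neutrophil sum of 3 animals on day 0 lies between 30620 and 43490, above all other libraries, and the platelet sum rose from a median of 643 to 2001 on day 3.

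Animals differed most on day 0. For ALOX5AP the standard deviation of the log2 values between animals was 1.31, 0.71 and 0.48 on the 3 days, and for LTB4R it was 1.26, 0.64 and 0.44. PTGS2 had 1.51, 0.81 and 0.89, and PTGS1 1.1, 0.65 and 0.47. The same animals supplied the high end of several members. Animals 7, 11 and 15 held the 3 highest day 0 values of PTGS2 (141, 158 and 151 scaled FPKM), of ALOX5 (90.1, 48.7 and 83.8) and of ALOX5AP (829, 913 and 1016). They were also the 3 animals with the highest neutrophil sum on day 0, at 30620, 39670 and 43490, against at most 11080 in the others. Animals 13 and 14, with the highest PTGS1 on day 0, had the highest platelet sums of that day, 4355 and 2046. By day 3 the PTGS2 values of animals 7, 11 and 15 were 5.46, 4.61 and 7.86, within the range of the other animals.

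Whether animals kept their order between days was tested for each member and pair of days, 30 correlations of log2 levels over 15 animals. For HPGD the levels on day 0 and day 3 were correlated on Pearson's r but the ranks did not pass (Pearson's r = 0.79, permutation p = 4.20e-04, adjusted p = 0.0126; Spearman's rho = 0.59, permutation p = 0.0245, adjusted p = 0.119). Without the 2 animals farthest from the median its r was 0.61. Between day 0 and day 14 HPGD had r = 0.67 (permutation p = 0.00595, adjusted p = 0.0446) and rho = 0.66 (permutation p = 0.00952, adjusted p = 0.0906), with r = 0.49 without the 2 farthest animals. PTGER2 had r = 0.69 between day 3 and day 14 (permutation p = 0.00445, adjusted p = 0.0446) and rho = 0.76 (permutation p = 0.00141, adjusted p = 0.0423), with r = 0.61 without those animals. ALOX5AP had r = 0.69 between the same days (permutation p = 0.00497, adjusted p = 0.0446), but rho = 0.50 (permutation p = 0.0613, adjusted p = 0.189), with r = 0.60 without the 2 farthest. The other 26 correlations did not pass on Pearson's r, and PTGER2 from day 3 to day 14 was the single one of the 30 that passed on both measures. Without TMM scaling both HPGD correlations passed on r (0.85 and 0.74), that with day 3 also on rho, while those of PTGER2 (0.58, adjusted p = 0.153 by permutation) and ALOX5AP (0.33, adjusted p = 0.436 by permutation) between day 3 and day 14 did not. PTGER2 between day 0 and day 14 then passed on rho (0.74, adjusted p = 0.03495 by permutation) but not on r (0.64, adjusted p = 0.0876 by permutation). For LTB4R the r between day 0 and day 3 was −0.39 (permutation p = 0.153, adjusted p = 0.270; rho = −0.29, permutation p = 0.290, adjusted p = 0.478).

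After the mean of each time point was removed, members of the leukotriene branch varied together over the 45 samples. These are 3 samples from each of 15 animals, they share library scaling and cell makeup, and r is given as a description. ALOX5AP had r = 0.91 with LTB4R and 0.81 with ALOX5. LTA4H was less close, with r = 0.68 with ALOX5AP, 0.59 with ALOX5 and 0.58 with LTB4R. The pattern was not confined to the branch, since PTGES had r = 0.65 with LTB4R. PTGS2 was closer to this branch than to the other cyclooxygenase, with r = 0.78 with LTB4R, 0.77 with ALOX5AP and 0.01 with PTGS1. PTGS1 had its lowest r with LTA4H, −0.34. Over the same samples the genes most like each member were sought among 10939 genes with a mean of at least 5 CPM. For PTGS1 they were ESAM (r = 0.88), ITGA2B (0.87) and CLU (0.84). PTGS2 was most like STEAP4, ACSL1 and MXD1 (each 0.90), ALOX5AP like MSRB1, FPR1 and PLBD1 (each 0.94), and LTB4R like LOC103243087 (0.94), TRIB1 and FRAT2 (each 0.92). ALOX5 was most like CKAP4 (0.90), GLT1D1 (0.89) and PLAUR (0.89), and LTA4H like ASRGL1 (0.82), LOC103234758 (0.81) and HK3 (0.80). For PTGES the closest were PGD, RASSF3 and AGPAT6 (0.71 to 0.73), for HPGD they were NENF, F13A1 and PROS1 (0.70 to 0.71), and for PTGER2 PAM, WSB2 and MGAT2 (0.67 to 0.70). For PTGER4 the highest r was 0.57, with WDR55, followed by LOC103219954 and PDLIM2. ITGA2B and FPR1 are on the platelet and neutrophil marker lists.

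Of 54 other genes of eicosanoid synthesis, transport and reception, 46 had a row and 42 were abundant enough to be tested. PTGDS, PTGER1, SLCO2A1 and ALOXE3 were not. On day 3 vs. day 0, 11 of the 42 (26.2%) passed, 8 up and 3 down. By day 14 there were 20 (47.6%), with 10 in each direction, and between the later days 10 (23.8%), of which 4 rose and 6 fell. The shares of all tested genes were 19.2%, 44.0% and 23.7%. Without TMM the calls were 6 up and 1 down on day 3, 5 up and 20 down by day 14 and 2 up and 21 down between the later days. Of the 18753 tested genes, 2400, 11102 and 9574 were then called. The median log2 fold change of the 42 genes was 0.08, 0.00 and −0.09.

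**Figure D5:**
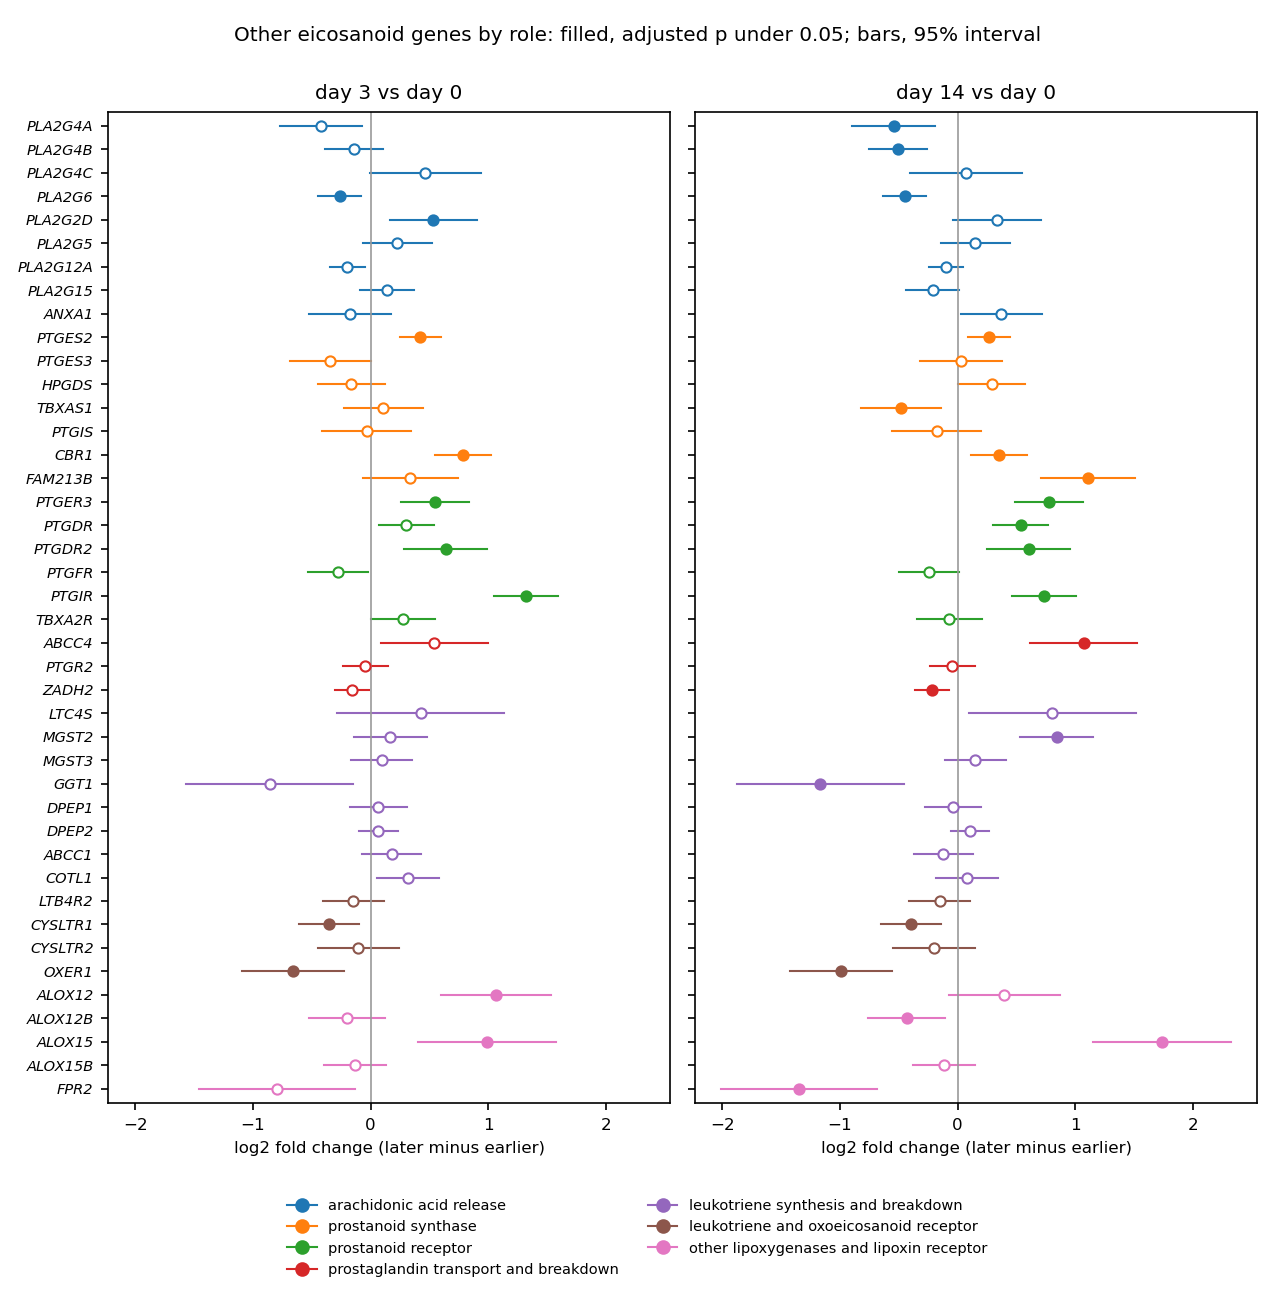
Log2 fold change (x axis, later minus earlier time point) of 42 other eicosanoid genes, grouped by role in colour, on day 3 vs. day 0 and day 14 vs. day 0, as points with 95% intervals from limma (15 animals), filled where the adjusted p-value was under 0.05. Of 6 prostanoid receptors, 3 and then 4 were up-regulated, and of 4 leukotriene and oxoeicosanoid receptors 2 were down-regulated at both times.

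Receptors of the prostanoid branch that passed against day 0 were higher on the later day. PTGIR, the prostacyclin receptor, lay between 0.510 and 2.33 scaled FPKM on day 0 (median 0.804), between 1.26 and 4.26 on day 3 (median 2.31) and between 0.75 and 2.54 on day 14 (median 1.63). It was higher on day 3 in 15 of 15 animals, though the ranges overlapped, with a log2 fold change of 1.32 (standard error 0.13, adjusted p = 5.89e-07 from limma). It then fell from day 3 to day 14 by 0.58 on the log2 scale (adjusted p = 0.00285), with lower values in 14 animals. Without TMM that change of PTGIR was −0.94 (limma adjusted p = 1.22e-04). PTGER3, a prostaglandin E2 receptor that lowers cyclic AMP, rose by 0.78 by day 14 (adjusted p = 5.22e-05, 14 of 15 animals). PTGDR, a prostaglandin D2 receptor, rose by 0.54 over the same interval (adjusted p = 3.61e-04, 11 of 15 animals), at levels under 0.84 scaled FPKM. Of 6 tested prostanoid receptors 3 passed on day 3 and 4 on day 14, all up. Without TMM it was 2 up on day 3 and 1 up and 1 down on day 14, and PTGER3 (log2 fold change 0.37, adjusted p = 0.0855) and PTGDR (0.22, 0.208) did not pass.

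Among the synthases, CBR1, a carbonyl reductase that can turn prostaglandin E2 into prostaglandin F2α, went from a median of 30.2 scaled FPKM on day 0 to 52.0 on day 3 and 41.2 on day 14. It was higher on day 3 in 15 of 15 animals (log2 fold change 0.78, limma adjusted p = 1.69e-04) and fell by 0.43 on the log2 scale by day 14 (adjusted p = 0.00994, lower in 14). Without TMM the change of CBR1 from day 3 to day 14 was −0.81 (limma adjusted p = 1.485e-05). PTGES2, another prostaglandin E synthase, rose by 0.42 on day 3 (adjusted p = 0.00132, 14 of 15 animals; 0.0855 without TMM). FAM213B, the prostamide and prostaglandin F synthase, rose by 1.11 by day 14 (adjusted p = 4.00e-05, 14 of 15 animals), from a median of 0.846 to 2.15. Without TMM the rise of FAM213B was 0.71 (limma adjusted p = 1.40e-04). Of 7 tested synthases 2 passed on day 3, both up, and 4 by day 14, of which 3 rose and 1 fell (1 up, and then 1 up and 2 down, without TMM). The one that fell, named after its values were seen, was TBXAS1, the thromboxane synthase, with −0.48 on the log2 scale on day 14 vs. day 0 (adjusted p = 0.0185 from limma, lower in 11 of 15 animals) and −0.59 on day 14 vs. day 3 (adjusted p = 0.0116, lower in 13). Of 3 tested genes of transport and breakdown, 2 passed by day 14, 1 up and 1 down (1 up and 2 down without TMM). ABCC4, an exporter of prostaglandins, rose by 1.07 (adjusted p = 2.74e-04, 13 of 15 animals), and ZADH2, also named after its values were seen, fell by 0.22 on the log2 scale (adjusted p = 0.0144, 12 of 15 animals). Without TMM the rise of ABCC4 was 0.65 (limma adjusted p = 0.00118).

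With TMM scaling the largest change of the list was that of ALOX15, the 15-lipoxygenase. It went from 2.94 to 37.9 scaled FPKM on day 0 (median 8.87) to 11.4 to 57.0 on day 3 (median 19.7) and 9.28 to 209 on day 14 (median 32.9). The log2 fold change on day 14 was 1.74 (standard error 0.29, adjusted p = 1.63e-05 from limma), with higher values in 13 of 15 animals and overlapping ranges. Without TMM it was 1.32 (limma adjusted p = 2.08e-05). ALOX12, the platelet 12-lipoxygenase, rose on day 3 by 1.06 (adjusted p = 0.00203, 13 of 15 animals), from a median of 0.348 to 1.21. Of 5 tested genes in the group of other lipoxygenases and the lipoxin receptor, 2 passed on day 3, both up, and 3 by day 14, of which 1 rose and 2 fell, with the same counts without TMM. The 2 that fell, named after their values were seen, were FPR2, the receptor of lipoxin A4, with a log2 fold change of −1.35 (adjusted p = 0.00121, lower in 12 of 15 animals), and ALOX12B, with −0.43 (adjusted p = 0.0274) at levels of at most 0.260 scaled FPKM. MGST2, a glutathione transferase that can make leukotriene C4, rose by 0.84 from day 0 to day 14 (adjusted p = 4.85e-05, 12 of 15 animals), and by 0.68 from day 3 to day 14 (adjusted p = 0.00261, 14 animals). Without TMM these rises of MGST2 were 0.42 and 0.30 (limma adjusted p = 0.00402 and 0.0427). PLA2G6, a calcium-independent phospholipase A2, fell by 0.45 by day 14 (adjusted p = 1.77e-04) and was lower in 15 of 15 animals. Without TMM its log2 fold change was −0.85 (limma adjusted p = 3.85e-06). The genes listed under the release of arachidonic acid are phospholipases and ANXA1, an inhibitor of phospholipase A2 that was not called against day 0. Of the 9 tested, 2 passed on day 3 (1 up and 1 down) and 3 on day 14 (all down). Without TMM the 2 calls of day 3 were lost, and 5 genes passed on day 14, all down. Of 8 genes for leukotriene synthesis and breakdown 0 passed on day 3 by limma (2 at an unadjusted p under 0.05, 0 by limma-voom) and 2 on day 14 (1 up and 1 down), and of 4 leukotriene and oxoeicosanoid receptors 2 passed at both times, all down. Without TMM the leukotriene synthesis and breakdown genes gave 1 up and 4 down on day 14, and the receptors 1 down on day 3 and 4 down on day 14.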

How the data were processed

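The authors prepared stranded libraries from ribosomal RNA- and globin-depleted total RNA, aligned paired-end reads with STAR and counted with HTSeq, and the deposited values are FPKM with no further scaling between libraries. Genes carry symbols alone, so positions are not given here. Every one of the 1011768 values above 0 was a whole multiple (tolerance 1e-08) of what 1 fragment was worth, which gave the fragments per library. Tested genes had more than 0.5 CPM (6.61 to 15.7 fragments) in at least 3 samples. TMM factors were computed from the recovered fragments, and log2(scaled FPKM + 0.1) was compared with limma 3.58.1 (R 4.3.3), with time point and animal as terms. Same-numbered samples are the same animal by the labels. After removal of time point means, the mean r across genes was 0.328 between samples of an animal and −0.0231 between different animals, and 41 of 45 same-animal pairs were above 0.1. Ratios were tested by exact sign-flips over 15 animals (32768 patterns) and correlations with 100000 permutations (scipy 1.17.1, Python 3.11.15). Every member is named. Of the other eicosanoid genes, the 8 called with the lowest adjusted p on day 14 vs. day 0 and the 4 each in the other comparisons are named. The members and lists were chosen with earlier results of these data known. The alternatives were no animal term, other scalings, pseudocounts and filters, the RNA integrity number of the study as a covariate, limma-voom on the recovered fragments, and leaving out each animal. Simulated 2-fold changes between day 14 and day 0 on 18753 genes were called in 50 of 50 cases in each direction, and 1.5-fold changes in 42 (up) and 43 (down) of 50. The changed genes were drawn from abundant ones, and their spread was set and not taken from the members. For PTGES the standard deviation of the within-animal log2 change between these days was 1.36. The simulation thus cannot show how often a change of a member would be missed.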

Additional observations from a re-analysis of the deposited data

How the results depend on the processing

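Without the animal as a replicate block, day 3 vs. day 0 gave 2 members (4 with it), 2287 of all 18753 genes (3593 with it) and 4 other eicosanoid genes, and day 14 vs. day 3 gave 3 other genes. Without scaling between libraries 8 members passed by day 14 and 7 between the later days (11102 and 9574 of all genes), as did 7 other genes by day 3 and 23 between the later days. The sign-flip test then passed in 19 of 30 member comparisons in place of 8, and 2 in place of 4 between-day correlations passed. With the RNA integrity number as covariate and the replicate block, 1 member (PTGS2) in place of 3 passed on day 14 vs. day 0 (4070 of all genes in place of 8253), and 7, 10 and 5 other genes in the 3 comparisons. Small differences changed sign without reaching significance, apart from PTGER2 on day 14 vs. day 3 without scaling (−0.34, adjusted p = 0.0435). These were PTGES (−0.29) and ALOX5AP (−0.36) on day 14 vs. day 3 without scaling, and with the integrity number ALOX5 on day 3 vs. day 0 (0.0740) and PTGER2 on day 14 vs. day 3 (−0.0470). The change in the log2 ratio of PTGER4 to PTGER2 was −0.0108 on day 3 vs. day 0 with 1 added to FPKM and −0.00511 without animals 4 and 9 (chosen after seeing the data), and −0.24 (adjusted p = 0.00687) on day 14 vs. day 3 with 1 added. PTGS2 and PTGS1 on day 3 and PTGS2 on day 14 passed under each of 11 alternatives and without each animal. Median of ratios scaling, the stricter filter and limma-voom changed no call of a member. Leaving out 1 animal at a time, the other genes called numbered 7 to 13 on day 3, and 5 to 12 between the later days. The log2 differences that changed sign were PTGER2 (−0.13 to 0.0213) and ALOX5 (−0.19 to 0.15) on day 3, PTGER2 (−0.0822 to 0.0425) on day 14 vs. day 0, and between the later days PTGES (−0.0742 to 0.17), PTGER2 (−0.0179 to 0.0645) and ALOX5AP (−0.0313 to 0.0892). On day 14 vs. day 0 PTGES passed without animal 1 (adjusted p = 0.0451) and ALOX5 without animal 3 (0.0429), both lower. The PTGER4 to PTGER2 ratio changed by −0.0629 to 0.0781 on day 3 and by −0.18 to −0.11 between the later days, where it passed without animal 3 (adjusted p = 0.0289). The cause of these shifts was not tested. The day 0 samples differ from the later ones in place and sedation as well as in time, and the files hold transcript levels, not those of enzymes or lipid mediators.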
